A study of Mus musculus with 96 samples.

Results

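Imprinted genes are expressed mainly from the copy inherited from the mother or from the father, and 10 of them were followed in neurons of the lateral superior olive (LSO), a brainstem nucleus that compares sound between the ears. The genes were Snurf, Snrpn, Peg3, Ndn, Magel2, Meg3, Nnat, Peg10, Gnas and Usp29, taken as the rows of the expression table whose Ensembl identifier belonged to them. The table held 38887 genes, and 9 rows covered the 10 names, because Snurf and Snrpn shared a row. The genes were selected on the deposited values of these same neurons, with their levels and the difference between neuron classes in view. Levels and class differences are therefore given as a description, without a test.

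In mice, imprinted genes lie in clusters, and in each cluster a stretch of DNA that is methylated on the copy from a single parent sets which copy is read. Many of them act in growth, in feeding and maternal behaviour and in the developing brain, and loss of the paternal genes of the Snurf-Snrpn cluster in humans causes Prader-Willi syndrome. The study used the inbred strain C57BL/6J, whose parental copies carry the same sequence, so the parental origin of a read could not be told apart here and all values are the sum of both copies.

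Acute brainstem slices came from mice of both sexes around hearing onset, and the cell content, cytoplasm and nucleus, was drawn into the patch pipette after whole-cell recording. Principal LSO neurons (pLSOs), which project to the auditory midbrain, were labelled by firing pattern as Onset (41 neurons) or Sustained (11 neurons). Lateral olivocochlear neurons (LOCs), which project to the cochlea, carried the label of delayed firing (28 neurons). The 8 negative controls were pipettes that touched the slice and were withdrawn. The labels name no transgene or treatment for any group. Of 86 labelled neurons and 10 controls, 6 neurons and 2 controls were left out, because an earlier comparison of these data with cluster values of the study went against the label or the values of these libraries. Since no label ties a neuron to an animal, a group stands for 1 sample, and the SDs below describe the spread over neurons. The median sum of the pLSO markers was 591 TPM over pLSOs but 2 TPM over LOCs, and that of the LOC markers 0 and 1395 TPM. This is no independent check of the labels, because the study picked most of these markers from the same neurons and libraries that went against their label were left out first. A neuron held between about 149791 and 2716315 reads in genes (median 617877), as recovered from the table, and a control between 2110 and 116032 (median 26693). Reads had no molecular identifiers, so the read limits below cover counting error only. The exact intervals treat neurons as separate draws and leave out any likeness between neurons of the same animal.

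The start regions of 3 loci are shown because their genes were the highest members as deposited, and each lies at a region known to be methylated on a single parental copy. The windows run from 250 bases before to 50 bases after the RefSeq start (GRCm38.p6), and capitals mark CG, the pair of bases that carries the methylation, searched on the strand printed. Snurf and Snrpn start in the same window, chr7:60005150-60005449 on the minus strand. The windows of Peg3 (chr7:6730370-6730669, minus strand) and Usp29 (chr7:6730333-6730632, plus strand) face away from each other and share 263 bases. Meg3 starts at chr12:109540746-109541045 on the plus strand.
Snurf and Snrpn: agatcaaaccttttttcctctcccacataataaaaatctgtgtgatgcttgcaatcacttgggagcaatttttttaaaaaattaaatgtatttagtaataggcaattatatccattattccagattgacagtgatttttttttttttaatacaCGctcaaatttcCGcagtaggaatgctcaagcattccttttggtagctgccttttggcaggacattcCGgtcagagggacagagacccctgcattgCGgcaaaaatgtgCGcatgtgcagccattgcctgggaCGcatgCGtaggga
Peg3: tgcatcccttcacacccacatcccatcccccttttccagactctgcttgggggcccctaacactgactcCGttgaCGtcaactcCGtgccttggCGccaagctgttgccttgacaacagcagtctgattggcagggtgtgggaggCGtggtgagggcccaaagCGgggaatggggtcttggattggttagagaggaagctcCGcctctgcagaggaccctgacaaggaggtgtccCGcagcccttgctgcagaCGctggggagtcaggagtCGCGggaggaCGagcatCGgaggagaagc
Meg3: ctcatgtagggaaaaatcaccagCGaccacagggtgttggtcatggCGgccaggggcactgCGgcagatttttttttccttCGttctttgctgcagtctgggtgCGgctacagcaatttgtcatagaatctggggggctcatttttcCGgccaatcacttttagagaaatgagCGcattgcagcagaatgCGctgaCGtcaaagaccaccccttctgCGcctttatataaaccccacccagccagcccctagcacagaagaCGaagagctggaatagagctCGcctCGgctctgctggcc
The Snurf window held 7 CG, the Peg3 window 13 and the Meg3 window 13, and 52.1%, 37.9% and 37.9% of 32817 promoter windows held at least as many. These sequences carry no measurement from the neurons.

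The values were TPM (transcripts scaled to a common total per library), rounded to whole numbers by the authors, and their scale had to be settled before genes were compared. In every library the values of the early rows were whole multiples of the worth of 1 read. Of 8294 values in the first 530 rows that could be tested, 8292 were whole within the rounding of 0.5 TPM. The number that the reads were divided by followed the position of a row in the table, which is sorted by Ensembl identifier, and not the length of the gene. The divisor was 2 for Snurf, 3 for Peg3, 27 for Meg3 and 160 for Gnas, as their own values showed. It was near 365 for Ndn, 752 for Usp29, 838 for Magel2, 964 for Nnat and 2543 for Peg10, estimated from neighbouring rows. The exon lengths of the same genes in Gencode vM21 lie between 1829 bases for Nnat and 18089 bases for Meg3.

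**Figure D1:**
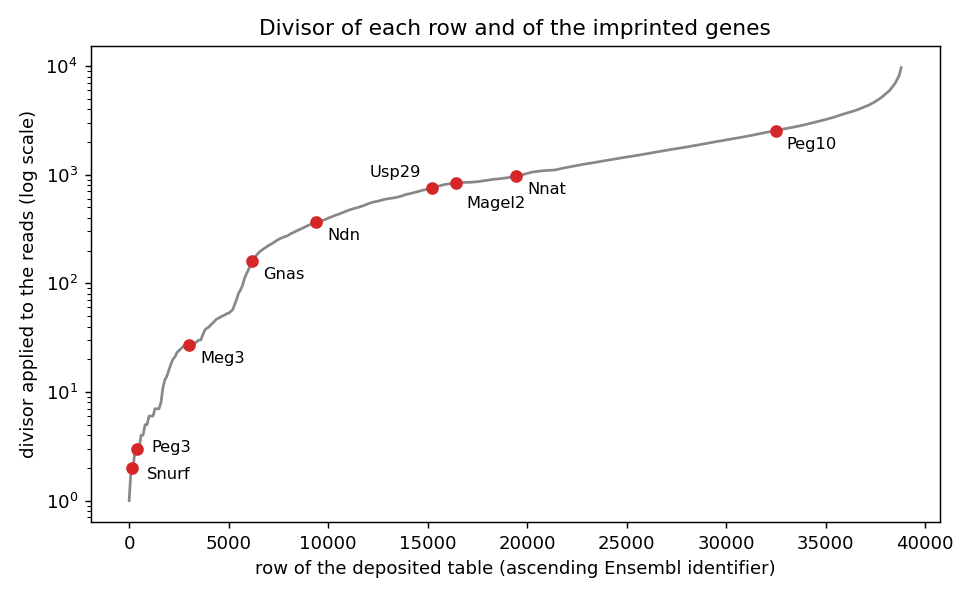
Divisor applied to the reads (log scale) against the row of the deposited table. The grey line gives all rows and the red points the 9 rows of the imprinted genes. Snurf and Peg3, near the start of the table, were divided by 2 and 3, and Peg10, near its end, by about 2543.

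This division has a pair of consequences for the imprinted genes. In an early row, 1 read already gave a high value, so that Snurf ranked 2 of all genes by mean deposited TPM, Peg3 ranked 10 and Meg3 ranked 18. In a late row, many reads rounded to 0. A listed 0 allowed up to 3.52 reads of Ndn in the median neuron, 9.3 reads of Nnat, 7.26 of Usp29, 8.09 of Magel2 and 24.5 of Peg10, whereas the limits for Snurf (0.0193 reads) and Peg3 (0.0289 reads) lay far below 1 read. A value of 0 for the late genes therefore does not show that no read was present.

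Reads were put back on the exon length of each gene to rank the genes by level, here called own-length TPM. Shares of neurons and values called deposited stay on the deposited scale, which depends on the row, also where genes stand side by side. On that scale the order by mean over the 80 neurons was Snurf (1144), Meg3 (779), Ndn (225), Peg3 (199), Gnas (127), Nnat (61.5), Usp29 (2.29), Magel2 (0.763) and Peg10 (0.378). By the median, Ndn (12.0) lay below Peg3 (127) and Gnas (39.1), since Ndn was at 0 in 39 of the 80 neurons and Peg3 in 5. The place of Ndn also rests on its estimated divisor of 365, where its own 2 informative values gave 236. The SDs of 321 TPM for Ndn and 207 TPM for Peg3 describe the spread over neurons and not whether the genes differ. Within single neurons, Meg3 exceeded Peg3 in 34 of 80 as deposited and in 76 of 80 per own length. With the longest transcript in place of the exon length the order was Snurf, Meg3, Gnas, Peg3, Ndn, so the places of Gnas and Ndn depend on the length chosen. Snurf fell to rank 73 of all genes, Meg3 to rank 154 and Peg3 to rank 753 by own-length mean.

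**Figure D2:**
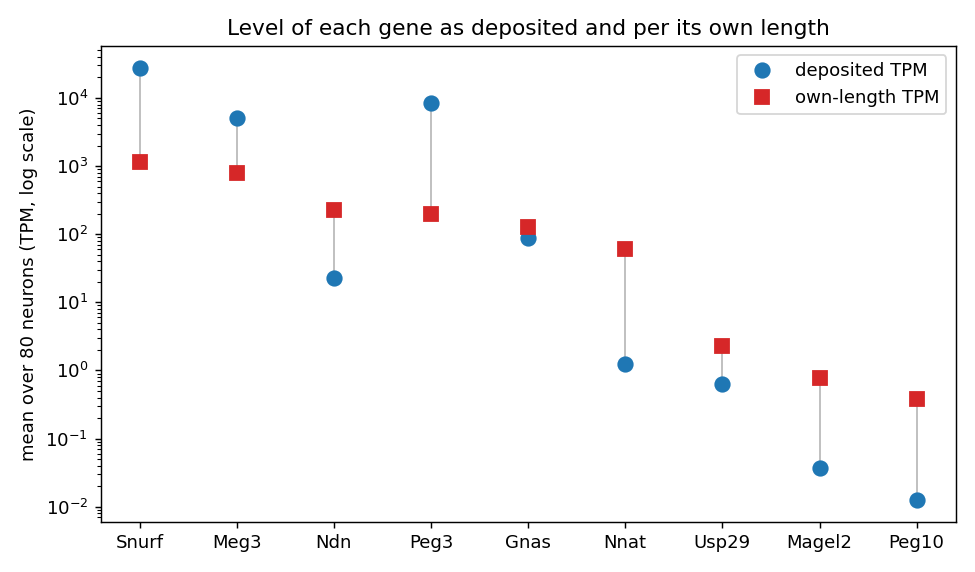
Mean over 80 neurons (TPM, log scale) of each imprinted gene as deposited (blue circles) and per its own exon length (red squares). Snurf, Peg3 and Meg3 fell from deposited means of 27891, 8522 and 5060 TPM to 1144, 199 and 779, while Ndn and Nnat rose from 22.9 and 1.25 TPM to 225 and 61.5.

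The Snurf-Snrpn cluster on chromosome 7 holds paternally expressed genes, among them Snurf and Snrpn, which share transcripts, Ndn and Magel2. Snrpn encodes a protein of the splicing machinery that is enriched in brain, and Snurf a short protein read from the same messenger RNA. The row named Snurf (ENSMUSG00000000948, chr7:59974149-60005064, minus strand, GRCm38) is called Gm38393 in Gencode vM21 and spans the joint locus, and the later Snurf and Snrpn identifiers have no row in the table used here. Its deposited level ran from 179 to 86110 TPM in Onset neurons (median 25686), from 6712 to 30886 TPM in Sustained neurons (median 12723) and from 54 to 65676 TPM in LOCs (median 25619.5). Snurf was thus detected, at 1 TPM or more, in all 80 neurons (exact 95% interval 95.5 to 100%), with 2 to 10903 reads a neuron. The ranges of pLSOs and LOCs overlapped, and a pLSO was the higher of the pair in 51.2% of pairs of a pLSO and a LOC. Means were 28992 ± 20540.2 TPM (SD, n = 52) in pLSOs and 25845 ± 16056 TPM (SD, n = 28) in LOCs, and mean log2(TPM + 1) differed by 0.33, pLSO minus LOC.

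Ndn (ENSMUSG00000033585, chr7:62346569-62350262) encodes necdin, a protein that restrains cell division and is abundant in neurons that have left the cell cycle. It was listed in 25 of 52 pLSOs (48.1%, exact interval 34.01 to 62.4%) and in 16 of 28 LOCs (57.1%, 37.2 to 75.5%). Ndn ranged from 0 to 107 TPM in pLSOs with a median of 0, and from 0 to 190 TPM in LOCs with a median of 25. The range of the pLSOs lay inside that of the LOCs, and the difference of mean log2(TPM + 1) was -1.13. The most Ndn reads in a neuron were about 1289 among pLSOs and 1287 among LOCs. At a level that every library could list (8.61 RPM, reads scaled to a common total), the shares of neurons were the same, 48.1% and 57.1%. A neuron that listed Ndn passed this level almost by construction, so the unchanged shares say nothing on the part of depth. Magel2 (ENSMUSG00000056972, chr7:62377010-62381640), a relative of necdin that acts in endosomal sorting, was listed in 1 Sustained neuron at 3 TPM, about 99 reads. It was at 0 in all 41 Onset neurons and all 28 LOCs, where the exact intervals end at 8.60% and 12.3% of neurons, and the read limit given above applies to each of these zeros.

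Peg3 and Usp29 belong to the Peg3 cluster, which also lies on chromosome 7. Peg3 (ENSMUSG00000002265, chr7:6703892-6730431, minus strand) encodes a zinc finger protein known for roles in growth and maternal care. It ran from 0 to 24155 TPM in Onset neurons (median 3262), from 20 to 16956 TPM in Sustained neurons (median 3773) and from 707 to 38474 TPM in LOCs (median 11561). LOCs were thus shifted upwards while the upper parts of the ranges overlapped, and a pLSO exceeded a LOC in 24.5% of pairs. In reads, Peg3 had a median of 240 per pLSO and 764.5 per LOC while LOC libraries held fewer reads in all (median 498585 against 691898). Means were 5503 ± 5905 TPM (SD, n = 52) and 14129 ± 11486 TPM (SD, n = 28), and mean log2(TPM + 1) was lower in pLSOs by a difference of -3.15, or -2.32 on the own-length scale. The neurons without Peg3 weigh on the logarithm: 5 Onset neurons were at 0, with no read of Peg3, where 3 reads would have given between 31.1 and 111 TPM. These 5 neurons had Snurf between 19465 and 69385 TPM and Meg3 between 1612 and 5841 TPM, and between 1333 and 2987 detected genes. Over pLSOs Peg3 moved with the number of detected genes (Spearman rho 0.43, n = 52) and with reads (rho 0.46), and over LOCs it went against the number of detected genes (rho -0.43, n = 28); the part of depth in the class difference was not tested. Among the neurons between the quartiles of detected genes the difference was -2.84.

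Usp29 (ENSMUSG00000051527, chr7:6730578-6967219, plus strand), a gene of the ubiquitin protease family, starts 146 bases from Peg3 in Gencode vM21. It was listed in 5 of 28 LOCs (17.9%, exact interval 6.06 to 36.9%), at 32, 7, 7, 3 and 1 TPM, about 816, 59, 66, 33 and 44 reads. It was listed in none of 52 pLSOs, where 3 counts of 52 would be 5.77% of neurons and the exact interval ends at 6.85%, and in none of the 8 controls. Peg3 in the same 5 LOCs was 6036, 10273, 3509, 2039 and 4474 TPM, places 19, 15, 24, 26 and 23 of 28. The LOCs that listed Usp29 were not those of highest Peg3.

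Meg3 (ENSMUSG00000021268, chr12:109541001-109571726, plus strand) is a long noncoding RNA of the Dlk1-Dio3 cluster, read from the maternal copy and retained largely in the nucleus. It was the member found in every library, neurons and kept controls alike. Meg3 ran from 288 to 14131 TPM in Onset neurons (median 3234), from 889 to 7838 TPM in Sustained neurons (median 4228) and from 411 to 26875 TPM in LOCs (median 6098.5), where it rested on 135 to 11344 reads. The ranges overlapped over most of their extent, with the highest LOCs above every pLSO, and a pLSO exceeded a LOC in 35.6% of pairs. Means were 4009 ± 2766 TPM (SD, n = 52) in pLSOs and 7010 ± 6017 TPM (SD, n = 28) in LOCs, with a difference of -0.55 in mean log2(TPM + 1) and -0.39 on the own-length scale. The SD was 69.0% of the mean in pLSOs and 85.8% in LOCs.

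Gnas (ENSMUSG00000027523, chr2:174284320-174346744) encodes the stimulatory G protein alpha subunit and further transcripts that differ in their parental origin, which the row adds up. Gnas ran from 0 to 243 TPM in Onset neurons (median 20), from 1 to 134 TPM in Sustained neurons (median 3) and from 0 to 644 TPM in LOCs (median 125.5). The LOCs lay higher by their median, while the ranges overlapped up to the highest pLSO at 243 TPM. It was listed in 48 of 52 pLSOs (92.3%, 81.5 to 97.9%) and 26 of 28 LOCs (92.9%, 76.5 to 99.1%). The means were 44.2 ± 60.6 TPM (SD, n = 52) and 170 ± 176 TPM (SD, n = 28), a ratio of 3.85, and a difference of -2.06 in mean log2(TPM + 1). In reads, the medians were 43.5 a pLSO and 370.5 a LOC.

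Nnat (ENSMUSG00000067786, chr2:157560078-157562522) encodes neuronatin, a small membrane protein of the endoplasmic reticulum in developing neurons, and is read from the paternal copy inside an intron of Blcap. It was listed in 13 of 52 pLSOs (25.0%, exact interval 14.0 to 38.9%) and 12 of 28 LOCs (42.9%, 24.5 to 62.8%), up to 7 and 22 TPM. A LOC library listed Nnat from fewer reads than a pLSO library, with a rounding limit of 7.81 against 11.7 reads in the median library. At a level that every library could list (22.8 RPM) the shares stayed at 25.0% and 42.9%. As for Ndn, listed neurons passed that level almost by construction, and the part of depth was not tested. Peg10 (ENSMUSG00000092035, chr6:4747306-4760517), a gene derived from a retrotransposon, was listed in 1 LOC at 1 TPM and at 0 in all pLSOs, where up to 30.9 reads in the median library would round to 0.

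**Figure D3:**
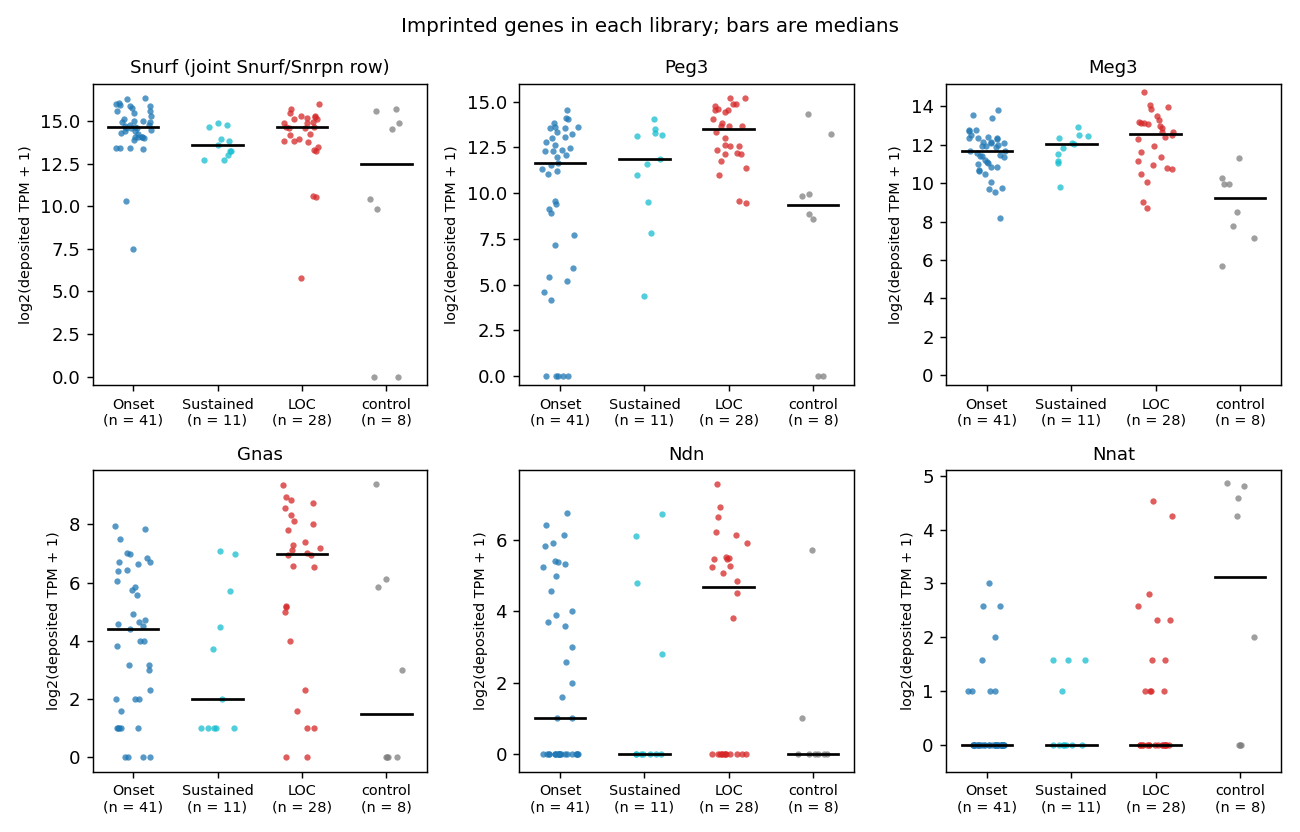
Deposited TPM, as log2(TPM + 1), of 6 imprinted genes in each Onset neuron, Sustained neuron, LOC and negative control, with bars at the medians. Peg3 and Gnas sit higher in LOCs (medians 11561 and 125.5 TPM) than in Onset neurons (3262 and 20 TPM), Snurf does not, and 5 Onset neurons lie at 0 for Peg3.

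For the class comparison, 7 of the 9 rows were among the 10319 genes detected in at least 5% of neurons. Of these 7, 3 were at least 2-fold higher in LOCs by the difference of mean log2(TPM + 1), namely Peg3, Gnas and Ndn, where 4.68% of all genes were. None of the 7 was at least 2-fold higher in pLSOs, where 6.99% of all genes were. The median difference was -0.55 over the 7 and 0.07 over all genes. Usp29 entered the 7 only through LOCs, listed in 5 of 28 LOCs and 0 of 52 pLSOs, so the filter fixed the sign of its difference. On the own-length scale Nnat passed 2-fold too, with a difference of -1.41 against -0.51 as deposited. This made 4 members higher in LOCs, and no share of all genes is given on that scale. Since the genes were selected with this contrast known, nothing is read from these counts and shares. The difference of mean log2(TPM + 1) ranged over the settings from -3.47 to -2.32 for Peg3, from -2.59 to -1.56 for Gnas and from -1.49 to -0.34 for Ndn, so that Ndn did not stay past 2-fold with a pseudocount of 10 TPM (-0.63) or among neurons between the quartiles of detected genes (-0.34).

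Onset and Sustained neurons shared much of their ranges. Of the 7 rows, 1 was at least 2-fold higher in Sustained neurons, Peg3 with a difference of -1.54 (Onset minus Sustained), where 10.3% of all genes were, and none in Onset neurons, where 4.78% were. The Peg3 difference came with means of 5346 ± 6036 TPM (SD, n = 41) in Onset and 6087 ± 5623 TPM (SD, n = 11) in Sustained neurons, and all 5 neurons at 0 were Onset neurons. Snurf was nearest to the threshold in the other direction, with 32635 ± 21310 TPM in Onset and 15414 ± 8833 TPM in Sustained neurons, a ratio of 2.12, and a difference of 0.83. An Onset neuron exceeded a Sustained neuron for Snurf in 78.7% of pairs, while the lowest Onset neuron, at 179 TPM, lay below every Sustained neuron.

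The negative controls give the background of RNA taken up from the slice. Of the 7 rows, 5 were at least 2-fold higher in neurons (Snurf, Peg3, Meg3, Ndn and Gnas), where 28.6% of all genes were, and Nnat was at least 2-fold higher in controls, where 1.17% were. The count of 5 was 3 with all labelled libraries or by the ratio of means. By means, Snurf was 1.40-fold higher in neurons and so fell short of 2-fold. Gnas went the other way, with a mean of 88.2 TPM in neurons and 99.6 TPM in controls. Without its highest library the control mean of Gnas was 18.7 TPM. Snurf in the 8 controls was 54005, 48999, 30424, 23813, 1396, 935, 0 and 0 TPM, so that 6 of the 8 lay within the range of the neurons (54 to 86110 TPM) and those at 0 below it. These values rested on 4, 256, 8, 35, 8, 4, 0 and 0 reads, against a median of 818.5 reads in neurons, and 1 read was worth more TPM in a control library. Meg3 had 1 to 57 reads in the controls and 135 or more in each neuron, so that in reads the kept groups did not overlap. Their total reads did not overlap either, with at most 116032 in a control and at least 149791 in a neuron. In TPM, Meg3 did overlap, at 50 to 2535 in the controls and from 288 upwards in neurons. Over all labelled libraries the reads of Meg3 overlapped too, since the controls left out had 2764 and 627 of them and a neuron left out had 0. Nnat in the controls was 28, 27, 23, 18, 3, 0, 0 and 0 TPM, about 1, 9, 64, 45, 6, 0, 0 and 0 reads, and 5 of 8 controls listed it (62.5%, exact interval 24.5 to 91.5%) against 25 of 80 neurons (31.25%, 21.35 to 42.6%). A single read sufficed for a listed value of Nnat in the median control, with a rounding limit of 0.386 reads, and 9.3 reads did not in the median neuron. Oligodendrocyte markers summed to a median of 3642 TPM in controls and 136 TPM in neurons. Neuron markers were also higher in controls, with medians of 3701.5 and 2149.5 TPM. Medians in controls and neurons were 48 and 350 TPM for pLSO markers and 10 and 4.5 TPM for LOC markers. They were 0 and 1 TPM for astrocyte, 0.5 and 0.5 TPM for microglia and 0 and 0 TPM for endothelium markers. The part of any of these cell types in the control values was not tested.

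Within pLSOs the members varied mostly on their own, and within LOCs some of them varied together or in opposite directions. Among 15 pairs of the 6 genes shown by library, Spearman correlations over the 52 pLSOs lay between -0.29 and 0.26. Over the 28 LOCs they reached further, from -0.73 for Peg3 with Ndn and -0.67 for Meg3 with Ndn to 0.54 for Peg3 with Meg3. In LOCs Peg3 and Meg3 were thus lower where Ndn was higher, and over the same genes in pLSOs the values were 0.22, 0.07 and 0.21. The points share the library and its depth, and given the number of detected genes the values over LOCs were -0.67, -0.59 and 0.41. Malat1, a nuclear noncoding RNA, moved with them over LOCs (rho 0.67 with Peg3, 0.81 with Meg3 and -0.67 with Ndn), and given Malat1 they were -0.50, -0.30 and -0.01. The part of Malat1 or of what it marks was not tested.

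**Figure D4:**
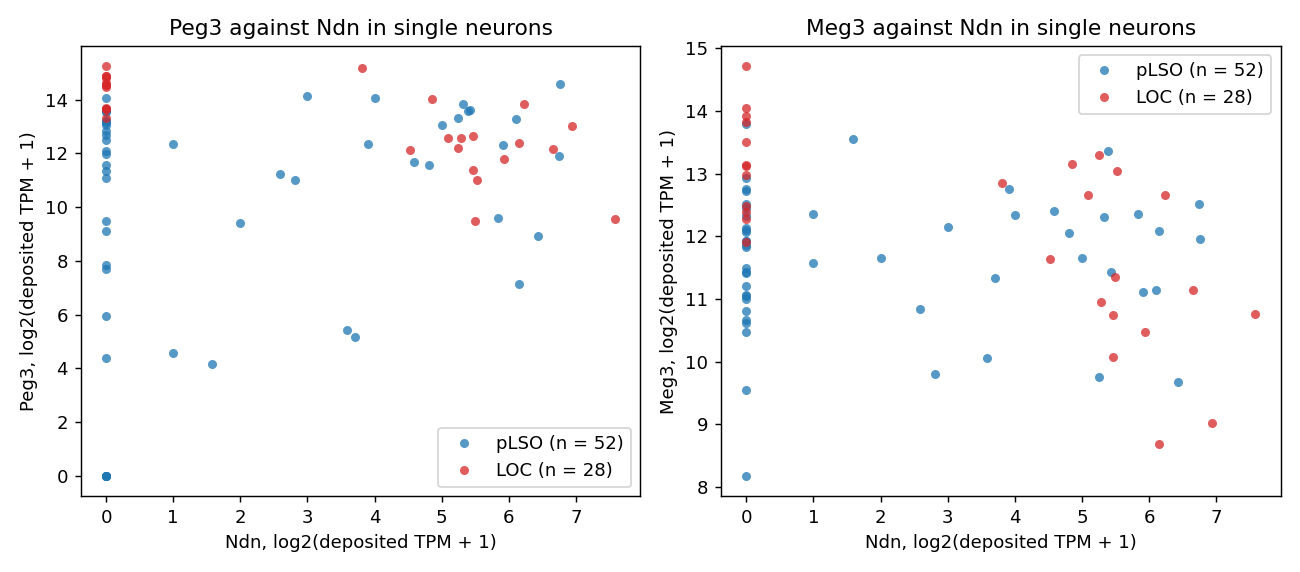
Peg3 (left) and Meg3 (right) against Ndn in each neuron, all as log2(deposited TPM + 1), for 52 pLSOs and 28 LOCs. In LOCs the points fall from upper left to lower right (Spearman rho -0.73 and -0.67), and in pLSOs they do not (0.22 and 0.07).

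The genes whose pattern over the 80 neurons was most like that of each member were found among 1950 genes outside the imprinted lists that were detected in at least 40% of neurons. Meg3 was most like Snhg11 (rho 0.71) and Malat1 (0.69), both noncoding RNAs. Snurf was most like Calm2 (0.55), a calmodulin gene, and the unnamed row ENSMUSG00000095746 (0.48). Peg3 was most like Cacna1e (0.47) and Scn3a (0.42), which encode pore subunits of a calcium and a sodium channel. Gnas was nearest to Gm20721 (0.50) and Cystm1 (0.45), Ndn to Arhgdig (0.45) and Eif5b (0.43), and Nnat to Timm50 (0.38) and Rpl10a (0.38). These are the highest of 1950 values each, over libraries that differ in depth and over both classes together, so a gene that differs between the classes can rank high. Over pLSOs and LOCs apart, rho was 0.22 and 0.55 for Peg3 with Cacna1e, 0.18 and 0.36 for Peg3 with Scn3a, and 0.12 and 0.71 for Gnas with Gm20721. For Meg3 with Snhg11 it was 0.54 and 0.87.

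The recordings of the same neurons gave 14 electrophysiological features, and the feature with the largest correlation in size was taken for each gene in each class. The largest of these was that of Nnat with the resting potential over 19 LOCs (rho -0.65), followed by Peg3 with the sag amplitude over 28 LOCs (0.49) and Nnat with membrane capacitance over 52 pLSOs (0.40). The sag is the partial return of the membrane potential during a hyperpolarising current step, and it was small in LOCs, with a median of 1 mV against 7.3 mV in Onset neurons. For Snurf in pLSOs it was rheobase (0.35), the smallest current that evokes a spike. Each value is the largest of 14, and the median over genes and classes was 0.29 in size.

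A wider list of 52 imprinted genes that are not among the 10 set these values in context. A row was present for 46 of them, of which 7 were at 0 in all neurons, 10 were listed in under 5% of neurons, and 29 could be compared. Of the 29, 6 (20.7%) were at least 2-fold higher in LOCs and 0 in pLSOs, beside 4.68% and 6.99% of all genes, and the median difference was -0.15. These 6 were Rasgrf1, Bcl2l1, Impact, H13, Zim1 and Nap1l5. The list was chosen with earlier results of these data known, so nothing is read from these shares. Rasgrf1 is among the genes that the study itself found higher in LOCs, in the same neurons. Zim1 passed the 5% filter mainly through LOCs, listed in 5 LOCs and 1 pLSO. On the own-length scale 5 of the 6 stayed past 2-fold and Zim1 did not (-0.72). Inpp5f (1.17) and Zrsr1 (1.04) were then at least 2-fold higher in pLSOs, and both are named here after their values were seen. No share of all genes is given on that scale, so these own-length counts have no background beside them.

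Rasgrf1, an exchange factor that activates Ras and is read from the paternal copy, was listed in 19 of 28 LOCs (67.9%, exact interval 47.6 to 84.1%) and 6 of 52 pLSOs (11.5%, 4.35 to 23.4%). Its means were 42.9 TPM in LOCs and 4.27 TPM in pLSOs, with a difference of -3.28, and its highest pLSO, at 75 TPM, lay inside the range of the LOCs, which ended at 186 TPM. Impact, a regulator of the translation kinase Gcn2, had a median of 119 TPM in LOCs and 2.5 TPM in pLSOs, with a difference of -2.48. Bcl2l1, which protects cells from apoptosis, was listed in 15 of 28 LOCs and 10 of 52 pLSOs, but its highest value, 9808 TPM, was in a pLSO. H13, a protease of signal peptides, was listed in 12 LOCs and 13 pLSOs (42.9% and 25.0%). Zim1, beside Peg3, was listed in 5 LOCs and 1 pLSO.

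Nap1l5, a relative of nucleosome assembly proteins, was listed in 47 of 52 pLSOs and 27 of 28 LOCs, with medians of 29 and 65 TPM. On its own length its mean was 2368 TPM, above the 1144 of Snurf, although its deposited mean was 50.9 TPM. It so took the first place among all imprinted genes compared, by the longest transcript too. That place rests on a divisor of about 822, estimated from neighbouring rows. Nap1l5 was also listed in 6 controls, with a deposited mean of 33.4 TPM there, beside 40.9 TPM in pLSOs and 69.4 TPM in LOCs. Ube3a, the maternally expressed neighbour of Snurf that encodes a ubiquitin ligase, was listed in 42 pLSOs (80.8%, 67.5 to 90.4%) and 24 LOCs (85.7%, 67.3 to 96.0%), with medians of 36.5 and 22.5 TPM. Rian, a maternal noncoding RNA downstream of Meg3, was listed in 75.0% of pLSOs and 78.6% of LOCs with a median of 3 TPM in each.

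**Figure D5:**
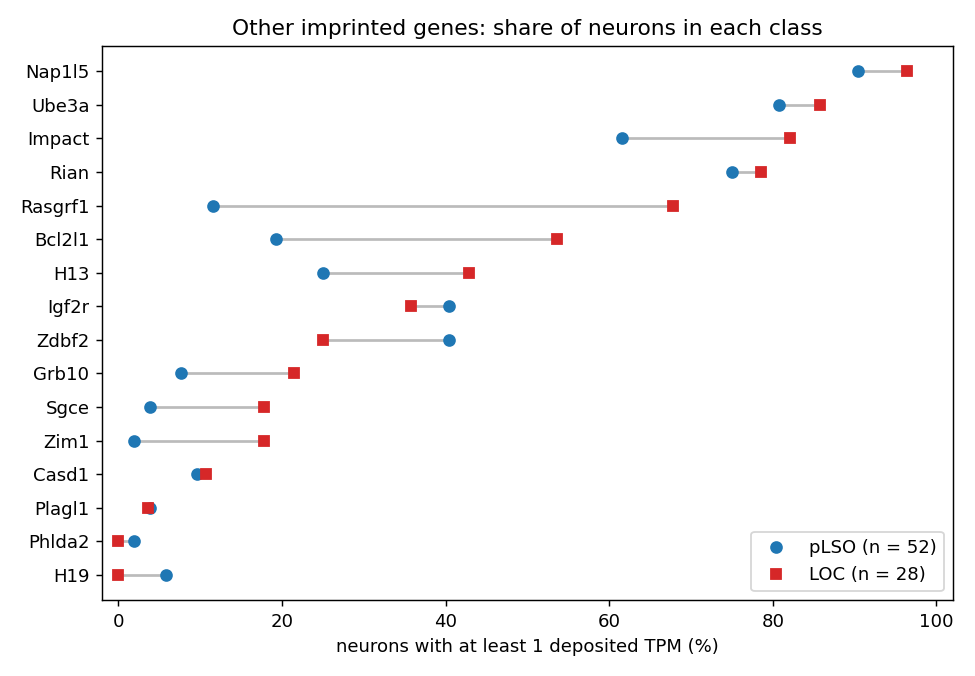
Share of 52 pLSOs (blue circles) and 28 LOCs (red squares) with at least 1 deposited TPM for 16 further imprinted genes. The widest gap is that of Rasgrf1, 11.5% of pLSOs and 67.9% of LOCs, while Ube3a, Rian and Nap1l5 lie at 75.0% or more in both.

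As a group, the 9 rows held a median of 3.86% of the deposited TPM of a neuron, from 0.337 to 9.62%. The share was 0.78% of its reads and 0.262% of its own-length TPM. LOCs held more on each scale, with medians of 4.66% against 3.32% of deposited TPM, 0.902% against 0.711% of reads and 0.288% against 0.232% of own-length TPM, and the ranges of the classes overlapped on all 3 scales. Snurf made up 75.2% of the deposited TPM of the members in pLSOs and 54.8% in LOCs, and Peg3 14.3% and 29.9%. A neuron listed between 2 and 7 of the 9 rows, with a median of 5 in each class, and a control between 3 and 5.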

How the data were processed

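Single-neuron RNA was amplified with a modified Smart-seq2 protocol and sequenced. Per the labels and methods of the study, the authors trimmed reads with Trim Galore 0.4.2, aligned them to mm10 with STAR, used Picard 1.115 and counted genes with featureCounts. The deposited values are TPM rounded to whole numbers and are handled here as a score, because their scale followed the row of the table and not gene length. Reads per value were recovered from the worth of 1 read in each of 96 libraries and a divisor per row. They were put on Gencode vM21 exon lengths for 37570 genes. The recovery was tried on simulated data for early rows only. The simulated divisors came from rows before those of all members but Snurf and Peg3, so divisors estimated from neighbouring rows were not checked this way.

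Groups came from the firing pattern label. The members and lists were chosen with earlier results of these data known, and 8 libraries were left out for the same reason. A gene was detected at 1 TPM, folds used a pseudocount of 1 TPM, and the background was 10319 genes detected in at least 5% of neurons. Shares carry exact (Clopper-Pearson) 95% intervals. No animal was named in the labels, so no test was run. Named were all 10 members and the 2 genes most like each member. Genes of the wider list were named with a mean of 10 deposited TPM in a class or if found in at least 50% of its neurons. Early rows reach 10 TPM more readily, as H19 did with a divisor of 1 and 3 pLSOs. Inpp5f and Zrsr1 fall outside this rule and were named after their values were seen. Other pseudocounts, detection levels, lengths and library sets were tried. Python 3.11.15, pandas 2.3.3, NumPy 2.4.6 and SciPy 1.17.1 were used.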

Additional observations from a re-analysis of the deposited data

Results flagged for a closer look

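In the 8 negative controls, the highest value stood far from the rest for 3 genes. Ndn was 52 TPM (14 reads) in a control, beside 1 TPM in another and 0 in the other six. Magel2 was 1 TPM (2 reads) in a control and 0 in the others. Gnas was 666 TPM (14 reads), and the next control had 68 TPM (8 reads). Chance sets apart about 1 in 20 groups of normally spread values, but that rate does not apply where most controls are at 0: any single value above 0 would stand apart, as for Magel2. The cause was not tested.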

How the results depend on the processing

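The 3 members at least 2-fold higher in LOCs became 5 with a pseudocount of 0.1 TPM. The 5 higher in neurons than in controls became 3 with all labelled libraries, with a pseudocount of 10 TPM and by the ratio of means. The 5 members detected in at least 50% of neurons became 3 at 100 TPM. Of the wider list, the 6 genes at least 2-fold apart became 10 with a pseudocount of 0.1 TPM and 10 by the ratio of means. The 4 detected in at least 50% of neurons became 2 at 10 TPM. Shares of all genes under these settings are not given, so the new counts have no background beside them. The median share of 3.86% became 0.262% with own-length values and 0.282% with the longest transcript, a length chosen after seeing the data. The cause of the other moves was not tested. In all, 36 recomputed counts and shares stayed near their value and 10 moved. Of the 9 member differences, 7 kept their sign under every setting, and Magel2 and Peg10 reached 0 in some. No paired analysis was possible because no result came from a test and the labels name no animals. Rounding limits the late rows, where up to 24.5 reads of Peg10 in the median neuron are listed at 0.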
